A study of Mus musculus with 8 samples.

Results

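The large molecular chaperones of injured mouse spinal cord, with the co-chaperones that work with them, were described from RNA-seq of cord taken 7 days after spinal cord injury. They were the protein-coding genes of the deposited count table whose symbols name an HSP70 (Hspa), HSP90 or HSP110 (Hsph1) protein, the mitochondrial chaperonin (Hspd1, Hspe1), a subunit of the cytosolic chaperonin CCT, a J-domain protein (Dnaja, Dnajb, Dnajc), a BAG protein or a heat shock factor (Hsf1, Hsf2, Hsf4). This gave 82 of 54532 genes. Of these, 76 had enough counts to be tested, among 16537 genes tested in all. The families were 13 HSP70, 3 HSP90, 1 HSP110, 2 mitochondrial chaperonin, 9 CCT, 4 DNAJA, 13 DNAJB, 28 DNAJC, 6 BAG and 3 HSF genes.

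HSP70 proteins bind unfolded stretches of other proteins and release them as ATP is used. J-domain proteins bring the substrate and start that cycle, and BAG and HSP110 proteins act as exchange factors that end it. HSP90 finishes the folding of kinases and hormone receptors, the chaperonins fold proteins inside a closed chamber, and the heat shock factors switch on many of these genes under stress. In nervous tissue several of them serve the synapse, where they renew vesicle proteins and strip clathrin from vesicles.

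The 4 libraries called control came from Tia1f/f mice and the 4 called CKO from Tia1Nestin-CKO mice, each named here by group and by the number in its title. All 8 were injured cord at day 7, and no uninjured cord was analysed here, so the levels below are those of injured tissue. TIA1 binds RNA and gathers in stress granules, and Nestin is expressed in neural progenitors, so the question is how the injured cord's transcripts differ when Tia1 is deleted by way of Nestin. The labels leave the Cre line, the deleted exons, and the age and sex of the mice unstated. They also do not say that each sample was a separate mouse, so p-values measure the spread between these samples. Whole cord holds many cell types, so fewer cells of a type and less RNA per cell could not be told apart.

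Libraries held 14752733 to 17802884 counts. Defining genes of cord tissue (Hoxa5, Hoxb6, Hoxc8, Hoxc9, Mbp, Gfap and Snap25) were present, and Mnx1, a gene of motor neurons, ran from 0 CPM in control 1 to 1.07 CPM in control 2. Control 1 stood apart, with 18884 genes detected against 22434 to 23414 in the others. Tia1 was at 41.9, 24.4, 31.3 and 34.2 CPM in control 1 to 4 and at 23.4, 27.8, 24.0 and 32.1 CPM in CKO 1 to 4. The groups overlapped, with 32.9 ± 7.21 against 26.9 ± 4.01 CPM (SD, n = 4 each; exact two-sided permutation test, p = 0.20), so counts over the whole gene did not separate the genotypes, and groups follow the labels. CPM are counts per 1000000 after TMM scaling, and ± is SD over the 4 libraries of a group throughout. Levels of different genes are ranked in deposited FPKM, which are per gene length, so ranks between genes depend on the length listed.

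Promoter stretches are shown for 3 sets of genes whose RNA levels are followed below: the mitochondrial chaperonin with Dnajb6, the endoplasmic reticulum chaperones, and the inducible HSP70 copies. RefSeq promoters on GRCm38.p6 were held for 65 of the 82 genes. Hsp90ab1, Hspa8, Hsp90aa1, Hspa9, Hspa13, Hsf1, Hsf4 and Bag4 were among those not held, so their promoters were not searched. Motifs were searched on both strands of the 250 bases before each start, except TATAAA, searched on the gene's strand alone. Capitals mark the matched letters, and each sequence is written 5′ to 3′ on the strand given. The first set holds the full heat shock element, which is GAANNTTC followed after 2 bases by another GAA, or its reverse complement. It matched 3 of the 65 promoters (4.62%), against 139 of 27025 promoters in the table (0.514%). Hspd1 and Hspe1 start from a shared stretch and run in opposite directions, so their 2 overlapping matches are the same bases, at chr1:55088053-55088082 (+). The Dnajb6 match is at chr5:29735844-29735873 (+), 46 to 34 bases before the start, where the sign of strand is that of the gene. GENCODE M21 also places these Hspd1 and Dnajb6 bases, and those of Hspa5 below, in the first exon of a longer transcript.
Hspd1-Hspe1: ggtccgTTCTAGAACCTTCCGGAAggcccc
Dnajb6: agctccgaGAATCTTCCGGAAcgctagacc

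The second set holds the endoplasmic reticulum stress element, in which CCAAT and CCACG are separated by 9 bases. It matched 3 of the 65 promoters (4.62%), against 35 of 27025 (0.13%). CCAAT alone was in 40% of the chaperone promoters and in 37.5% of all. The matches are in Hspa5 at chr2:34772020-34772049 (+), in Hsp90b1 at chr10:86705513-86705676 (−), which has 2 in opposite directions, and in Dnajc3 at chr14:118937807-118937865 (+). The proteins of these genes work in the endoplasmic reticulum.
Hspa5: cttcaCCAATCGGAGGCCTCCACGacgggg
Hsp90b1: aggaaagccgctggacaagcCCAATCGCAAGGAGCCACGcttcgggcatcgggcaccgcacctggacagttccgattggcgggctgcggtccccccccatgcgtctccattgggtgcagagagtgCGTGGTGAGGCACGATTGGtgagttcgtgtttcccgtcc
Dnajc3: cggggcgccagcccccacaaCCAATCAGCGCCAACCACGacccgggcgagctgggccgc

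The last set is that of the 2 inducible HSP70 copies. Over the 250 bases before their starts, Hspa1a and Hspa1b were identical at 247 (98.8%), and both carry GAANNTTC, the shorter pair of heat shock units, 104 to 97 bases before the start. A pair of either kind (GAANNTTC or TTCNNGAA, which can overlap the full element) was in 14 of the 65 promoters (21.5%), against 14.5% of all. On the gene's strand, TATAAA was in 3.08% of the chaperone promoters and 8.94% of all. The stretches lie at chr17:34972157-34972280 (−) for Hspa1a and chr17:34959239-34959362 (−) for Hspa1b.
Hspa1a: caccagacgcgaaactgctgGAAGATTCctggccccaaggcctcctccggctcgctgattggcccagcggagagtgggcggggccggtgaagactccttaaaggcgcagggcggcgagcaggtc
Hspa1b: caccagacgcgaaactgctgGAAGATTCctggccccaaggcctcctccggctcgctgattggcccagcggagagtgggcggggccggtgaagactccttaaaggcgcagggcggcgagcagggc

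The most abundant chaperone transcripts of the injured cord were those of cytosolic HSP90 and HSP70. Hsp90ab1, the constitutive HSP90, had a mean of 390 FPKM over the 8 libraries, Hspa8, the constitutive HSP70 (HSC70), 339 FPKM, and Hsp90aa1, the stress-inducible HSP90, 221 FPKM. These 3 genes made up 38.0% of the summed chaperone FPKM. Bag1, an exchange factor that links HSP70 to the proteasome, followed at 166 FPKM, Hspa5, the HSP70 of the endoplasmic reticulum (BiP), at 111 FPKM and Hspe1, the lid of the mitochondrial chaperonin, at 101 FPKM. A further 33 genes lay between 10 and 100 FPKM, 35 between 1 and 10 FPKM, and 8 below 1 FPKM. All 82 together took 0.870% to 1.11% of a library's counts, with the highest share in control 2.

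**Figure D1:**
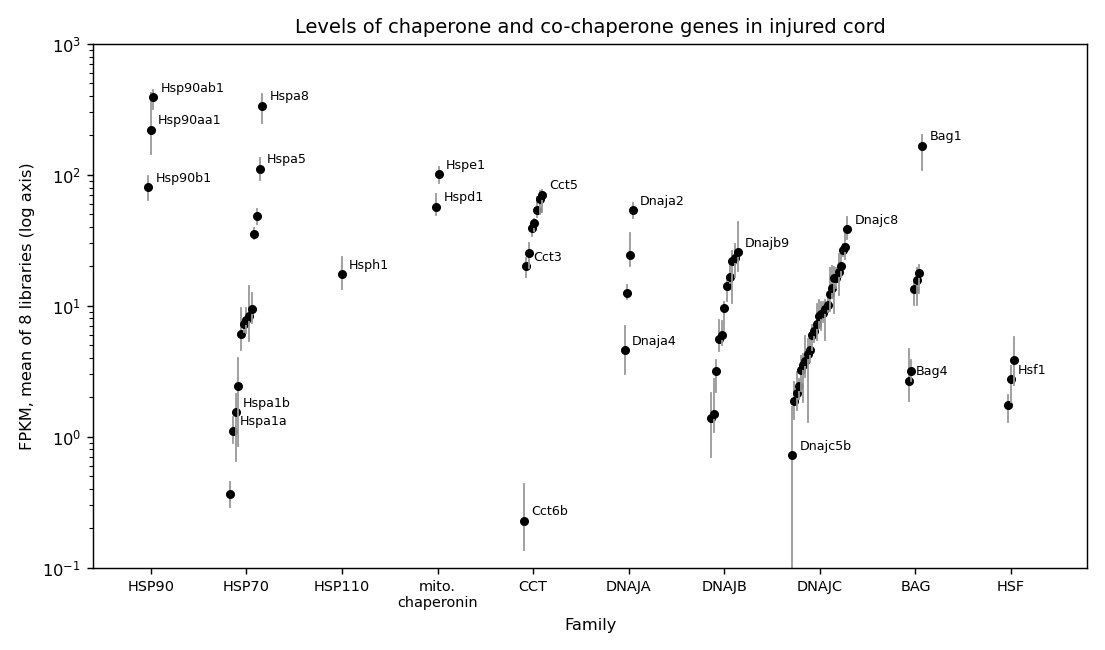
Level of each chaperone gene by family, as the mean FPKM of the 8 libraries (points, log axis) with a line from the lowest to the highest library; genes with a mean under 0.2 FPKM are not drawn, and the line of Dnajc5b runs off the axis because it is listed at 0 in 1 library. Hsp90ab1, Hspa8 and Hsp90aa1 stand at the top, while the inducible Hspa1a and Hspa1b sit near 1 FPKM.

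The inducible HSP70 genes were low. Hspa1b had a mean of 1.53 FPKM and Hspa1a of 1.11 FPKM, and their sum was 0.628% to 0.957% of the FPKM of Hspa8. Dnajb1 (HSP40), the J-domain partner of inducible HSP70, was at 14.1 FPKM, and Hsph1, the HSP110 exchange factor, at 17.5 FPKM. Of the heat shock factors, Hsf1, the main activator of the heat shock response, was at 2.76 FPKM, Hsf2 at 1.73 FPKM and Hsf4, known for its role in the lens, at 3.83 FPKM. With no uninjured cord, these values do not say whether injury had altered them.

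No chaperone differed between the genotypes past the threshold. At an adjusted p under 0.05 (edgeR's quasi-likelihood test, Benjamini-Hochberg over all genes tested) 0 of the 76 were called, as were 0 of the 16537 genes (0%). At an unadjusted p under 0.05, 0 of the 76 were called, against 1.42% of all genes (0.496% higher and 0.919% lower in CKO), and DESeq2's Wald test likewise called 0 of them after adjustment (1 of all genes). The means were higher in CKO for 34 genes and lower for 42, so 44.7% were higher, against 48.1% of all genes. This split moved with single libraries, to 29 and 47 without control 1 and to 44 and 32 without control 2. The median log2 fold change was −0.01 for the chaperones and −0.01 for all genes tested. The share of all genes with an unadjusted p under 0.05 was below what that threshold gives when no gene differs, so p-values ran high in this fit. The 95% intervals come from the same fit. They lay within a 2-fold change either way for 71 of the 76, and within 1.5-fold for 47, so smaller differences could have been missed.

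**Figure D2:**
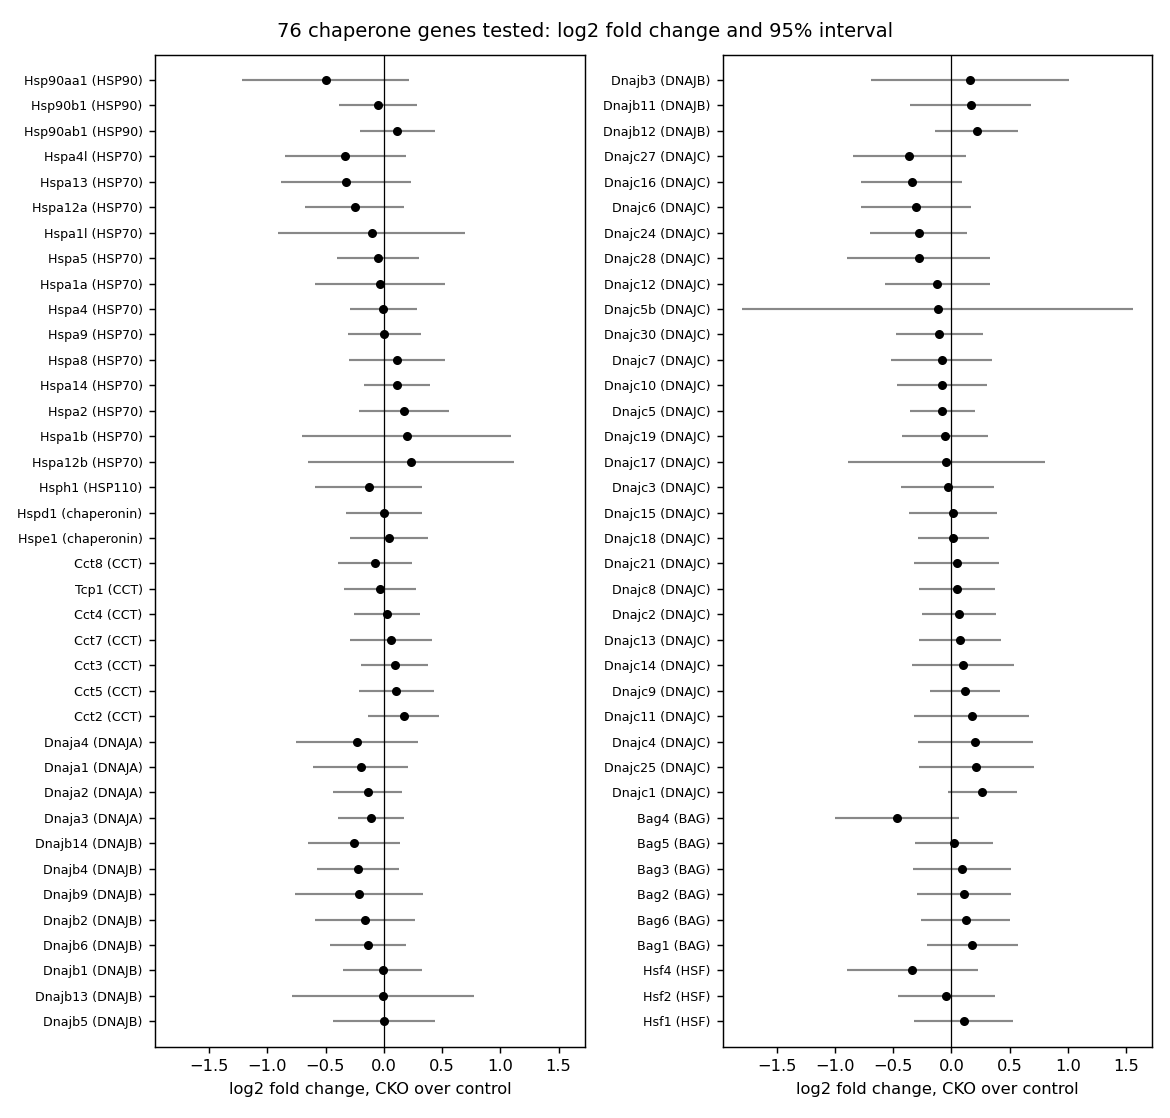
Log2 fold change of CKO over control for the 76 genes tested, by family (points), with 95% intervals from edgeR (lines). Every interval crosses 0, the lowest estimate is that of Hsp90aa1 at −0.50, and the interval of the scarce Dnajc5b is the widest.

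By family, the median log2 fold change lay between −0.17 and 0.10. All 4 DNAJA genes had a lower mean in CKO (median −0.17), as they did without control 2, where their median was −0.03. Of the 6 BAG genes 5 had a higher mean (median 0.10), but only 3 of 6 without control 1 (median −0.02). CCT had 5 higher and 2 lower (median 0.06), DNAJB 3 and 8 (−0.01), DNAJC 12 and 14 (−0.04), and HSP70 6 and 7 (−0.003). Without control 2 they had 7 and 0, 6 and 5, 13 and 13, and 7 and 6 in the same order. The difference exceeded its own standard error in 19 genes (25%, against 27.3% of all genes), 15 of them lower and 4 higher in CKO. That split by direction was not computed for all genes, so it has no background to be read against. Summed FPKM of a family gave no difference either: HSP70 was at 567 ± 63.0 in control and 589 ± 87.9 in CKO (p = 0.686), HSP90 at 713 ± 143 and 670 ± 33.5 (p = 0.829), and CCT at 312 ± 29.5 and 325 ± 13.3 (p = 0.457; exact two-sided permutation tests over 70 assignments, adjusted p = 0.829 for each of the 3).

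The HSP90 family held the gene with the lowest fold change of all 76. Hsp90aa1 (chr12:110690605-110702728, −) was at 1108, 1687, 569 and 741 CPM in control 1 to 4 and at 621, 1064, 572 and 648 CPM in CKO 1 to 4. Control 1, control 2 and CKO 2 were high, the other 5 libraries lay close together, and the groups overlapped. CKO was lower by a log2 fold change of −0.50 with an SE of 0.32 (interval at 95% from −1.21 to 0.22, unadjusted p = 0.153 in edgeR). The value rested on single libraries. It was −0.15 without control 2, −0.74 without CKO 2, −0.10 without control 2 and CKO 4 together, and −0.18 with library weights in limma-voom. Neuron markers moved with it in part: the summed CPM of 15 such genes was 2267, 3709, 1489 and 2018 in control 1 to 4 and 1924, 1991, 2164 and 1638 in CKO 1 to 4, none was at 0, and their part in the result was not tested.

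Its constitutive sister gene did not share that pattern. Hsp90ab1 (chr17:45567775-45573271, −) was at 978, 1253, 1156 and 1142 CPM in control and at 1241, 1060, 1344 and 1269 CPM in CKO, so its libraries spanned a narrow range. The FPKM ratio of Hsp90aa1 to Hsp90ab1 was therefore 0.864, 1.03, 0.376 and 0.495 in control 1 to 4 and 0.382, 0.766, 0.325 and 0.389 in CKO 1 to 4. The isoforms were close to equal in control 2, and the constitutive one led in every other library. Hsp90b1 (GRP94), the HSP90 of the endoplasmic reticulum and the gene with 2 stress elements above, averaged 333 ± 16.2 CPM in the 4 controls and 322 ± 57.0 CPM in the 4 CKO libraries, which differ by less than the standard error.

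**Figure D3:**
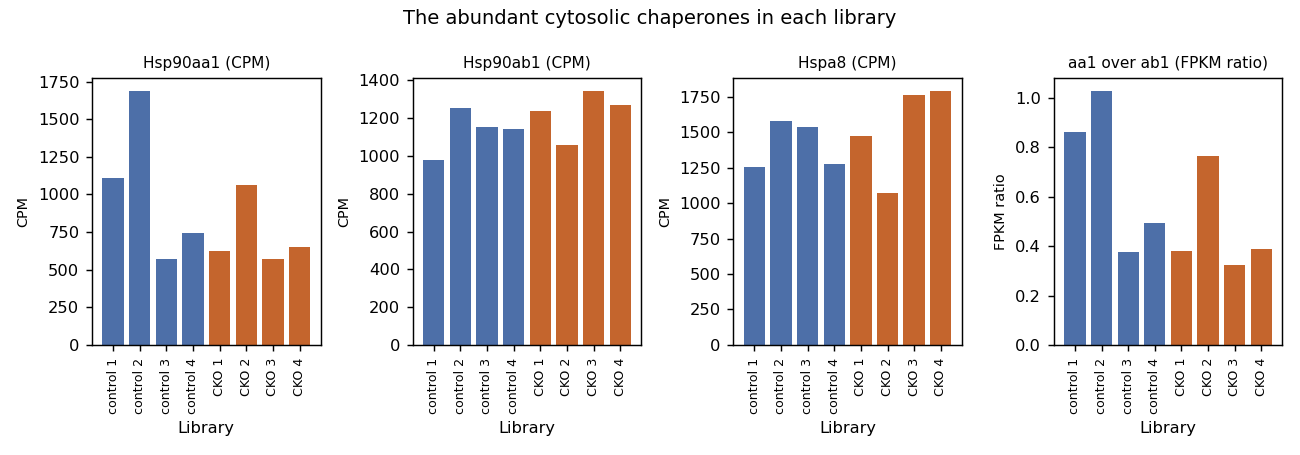
CPM of Hsp90aa1, Hsp90ab1 and Hspa8 in each library, and the FPKM ratio of Hsp90aa1 to Hsp90ab1 (aa1 over ab1); bars start at 0, control in blue and CKO in orange. Hsp90aa1 and the ratio are high in control 1, control 2 and CKO 2, while Hspa8 is lowest in CKO 2.

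Among cytosolic HSP70 genes, Hspa8 (chr9:40800984-40810087, +) was at 1255, 1577, 1538 and 1279 CPM in control and at 1471, 1075, 1764 and 1790 CPM in CKO. The groups overlapped, with means of 1412 ± 169 and 1525 ± 333 CPM, and CKO held both the lowest and the highest library. Hspa1b (chr17:34956436-34959238, −) was at 1.88, 6.00, 5.60 and 2.61 CPM in control and at 4.55, 2.50, 5.84 and 5.58 CPM in CKO. Control 1, control 4 and CKO 2 were the 3 lowest libraries for Hspa8 and for Hspa1b alike. Hspa1a (chr17:34969190-34972156, −) did not follow them: control 1 to 4 gave 3.75, 2.67, 4.22 and 2.78 CPM, and CKO 1 to 4 gave 3.15, 3.40, 3.07 and 3.50 CPM. Because these 2 copies are nearly identical and no source used here says how reads with several matches were counted, their separate values are uncertain.

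The HSP70 relatives that act as exchange factors varied between libraries more than between genotypes. Hspa4, the most abundant of them at 35.6 FPKM, was steady, averaging 199 ± 18.8 CPM over the control libraries and 198 ± 9.37 CPM over those of CKO. Hspa4l was at 96.4 and 114 CPM in control 1 and 2, and between 54.6 and 66.7 CPM in the other 6 libraries. Hsph1 was at 167 and 172 CPM in the same pair and between 97.8 and 138 CPM elsewhere. Both were thus high in control 1 and control 2, where Hsp90aa1 was also high, but not in CKO 2, the other library high for Hsp90aa1. Hspa12a, a distant HSP70 relative found in brain, was at 59.8 ± 14.0 and 50.3 ± 8.43 CPM (log2 fold change −0.25, SE 0.19), and single libraries moved its fold change from −0.38 (without control 4) to −0.15 (without control 3). The germ cell genes Hspa2 (19.4 ± 3.72 and 21.9 ± 2.97 CPM) and Hspa1l (0.721 to 1.13 CPM) were present at low levels. Hspa12b, the relative of Hspa12a in endothelial cells, ran from 3.20 CPM in control 1 to 14.7 CPM in CKO 4. The summed CPM of 7 endothelial markers was also lowest in control 1, at 96.4, against 122 to 198 in the others, none was at 0, and their part in the Hspa12b values was not tested.

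The mitochondrial chaperones were level between genotypes. Hspd1 (HSP60), which forms the barrel of the mitochondrial chaperonin, was at 148, 190, 137 and 133 CPM in control and at 154, 153, 142 and 159 CPM in CKO. Hspe1 (HSP10), the lid, was at 168, 168, 130 and 129 CPM in control and at 170, 161, 147 and 135 CPM in CKO. For both genes of the shared promoter shown above, control 3 and control 4 were the lowest libraries, and the group means differed by less than the standard error. The FPKM ratio of Hspd1 to Hspe1 ran from 0.492 to 0.655 over the 8 libraries. The genes overlap at their starts on opposite strands, and no source used here says whether counting used strand, so reads there could not be told apart. Hspa9 (mortalin), the HSP70 that pulls proteins into the matrix, was at 191 ± 22.5 and 191 ± 18.2 CPM. Dnajc15 and Dnajc19, J-domain proteins of the import motor, were at 54.7 ± 12.7 and 55.3 ± 5.16 CPM and at 35.5 ± 2.39 and 34.2 ± 7.31 CPM. Dnajc11 was at 35.6 ± 10.7 and 40.1 ± 4.23 CPM, and Dnajc30 at 15.2 ± 1.15 and 14.1 ± 2.57 CPM. Dnajc19 overlaps Fxr1 and Dnajc30 overlaps Bud23, both more abundant and on the opposite strand. Over the 8 mitochondrial members, 4 were higher and 4 lower (median log2 fold change 0.002).

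**Figure D4:**
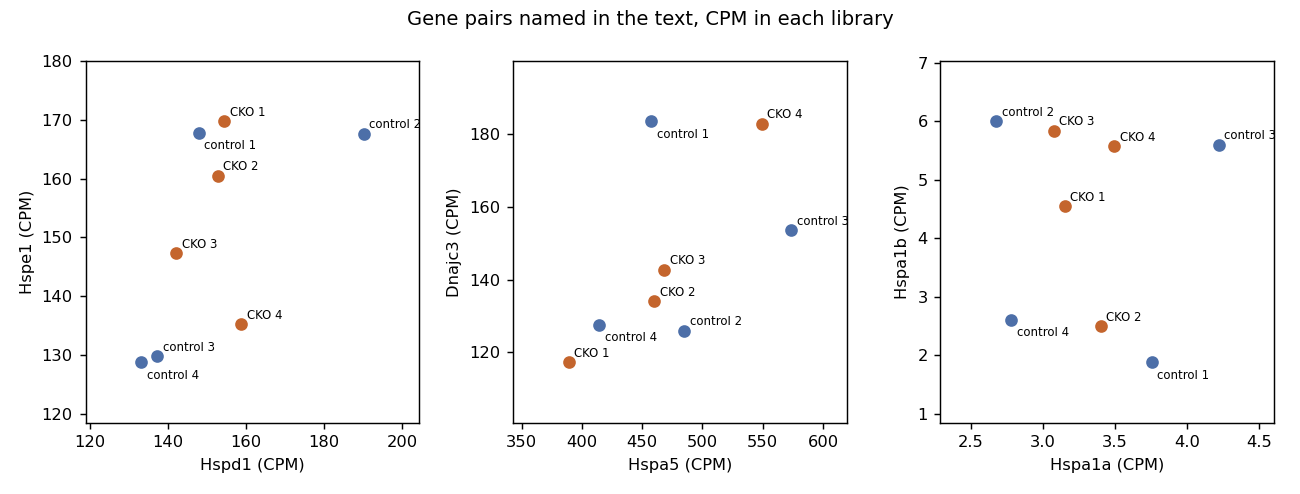
CPM of 3 gene pairs in each library, control in blue and CKO in orange: Hspd1 against Hspe1, which share a promoter, Hspa5 against Dnajc3, which share the stress element, and the near-identical Hspa1a against Hspa1b. Axes do not start at 0; the 2 genotypes are mixed in each panel, and Hspa1b is lowest in control 1, control 4 and CKO 2.

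The CCT ring, which folds actin and tubulin, is built of 8 different subunits in equal number, but the FPKM of their genes were not equal. In shares of the ring's summed FPKM, averaged over 8 libraries, Cct5 held 19.6%, Cct2 18.3%, Cct8 15.04%, Cct4 12.1%, Cct6a 11.2%, Tcp1 11.01%, Cct7 7.10% and Cct3 5.63%. Cct6a is listed as a processed transcript in the deposited table, so it is outside the 82 genes and serves only to complete the ring. The range over libraries was 15.8% to 21.0% for Cct5 and 15.2% to 19.9% for Cct2, which do not separate. It was 5.01% to 6.24% for Cct3 and 5.84% to 7.77% for Cct7, which remained below the other 6 subunits in every library. The listed gene length, by which FPKM are divided, was longest for Cct7 and Cct3 (6778 and 6370 bases). It was shortest for Cct2 and Cct5 (2557 and 2766 bases), and the part of length in the order of the subunits was not tested. Of the 7 CCT genes tested, Cct2 had the largest difference, from a mean of 160 ± 19.0 CPM in the controls to 180 ± 12.8 CPM with CKO (log2 fold change 0.17, SE 0.14, and 0.09 without control 1). The testis paralog Cct6b was at 0.257 to 0.834 CPM, and Cct8l1 had 0 counts in all 8 libraries, which allows up to 0.169 to 0.203 CPM (3 counts) in a library.

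**Figure D5:**
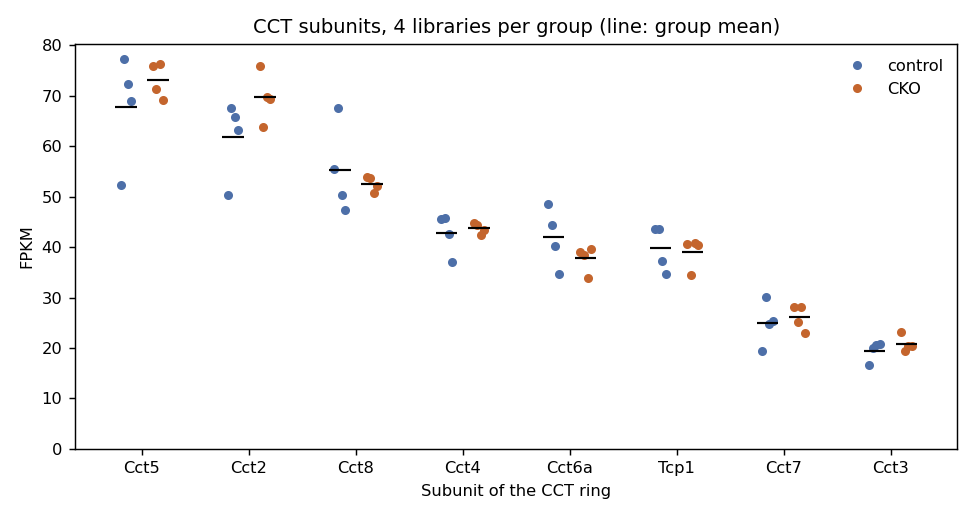
FPKM of the 8 CCT subunits in each library (points) with the group mean (line), control in blue and CKO in orange. Cct5 and Cct2 lead, Cct7 and Cct3 are lowest, and the groups overlap for each subunit.

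J-domain proteins choose what HSP70 works on, and they were the largest group, with 45 genes, of which 41 were tested. Dnaja2 had the highest FPKM of them, at 53.9, and Dnaja1, a farnesylated J-domain protein of the cytosol, was at 24.4 FPKM. In counts summed over the 8 libraries Dnaja1 was the higher, at 28548 against 21706 for Dnaja2. Dnaja1 was at 201, 314, 198 and 196 CPM in control and at 175, 227, 194 and 196 CPM in CKO. Control 2 stood above the other 7 libraries, and the log2 fold change went from −0.20 to −0.001 without it, and to 0.003 without CKO 4 as well. Dnaja2 averaged 170 ± 16.3 CPM in the controls and 154 ± 13.2 CPM with CKO (log2 fold change −0.14, SE 0.13). Dnaja3, which works in mitochondria, was at 51.5 ± 4.73 and 47.9 ± 3.27 CPM, and Dnaja4 at 17.9 ± 5.89 and 15.3 ± 2.17 CPM, both within their standard error.

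Of the DNAJB genes, Dnajb9 (ERdj4), the neuron-enriched Dnajb2, Dnajb11 (ERdj3), Dnajb6 and Dnajb1 had the highest FPKM, from 25.8 down to 14.1. In summed counts the order differed, with 8794 for Dnajb9 against 13239 for Dnajb2 and 13583 for Dnajb6. Dnajb9 had its highest library in control 1, at 114 CPM, against 47.9 to 73.8 CPM in the others. Dnajb11 had its lowest there, at 34.8 CPM against 71.7 to 85.2 CPM, so control 1 set these partners of BiP in opposite directions. Dnajb6, which keeps aggregation-prone proteins soluble and carries the heat shock element shown above, was at 106 ± 17.7 and 96.8 ± 5.45 CPM. Dnajb1 was at 45.6 ± 8.08 and 45.3 ± 3.49 CPM. Dnajb13 (1.95 to 6.01 CPM) overlaps Ucp2 on the opposite strand, which was at 751 CPM, so its counts are uncertain.

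Dnajc1 (ERdj1), a J-domain protein of the endoplasmic reticulum membrane that sits at the ribosome, had the smallest p of all 76. It was at 27.3, 23.0, 28.7 and 25.7 CPM in control 1 to 4 and at 29.7, 32.1, 31.8 and 32.4 CPM in CKO 1 to 4. Every CKO library lay above every control library, and it was the 1 chaperone of the 76 tested whose groups did not overlap. Of the 6 untested genes, the scarce Cct6b also did not overlap in CPM, at 0.340 to 0.834 in control and 0.257 to 0.337 in CKO. Its raw counts met, with 6 in both control 4 and CKO 1. Over all genes tested 1.19% did not overlap, 0.701% with CKO higher and 0.490% with CKO lower, so 1 of 76 is near the background. CKO was higher by a log2 fold change of 0.27 with an SE of 0.13 (interval at 95% from −0.03 to 0.56, unadjusted p = 0.0708 and adjusted p = 1.00 in edgeR), and this stayed between 0.21 and 0.32 with any 1 library left out. The gene lies at chr2:18195654-18392830 (−) and overlaps Mllt10 on the opposite strand, which was at 17.0 CPM.

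The endoplasmic reticulum chaperones as a group did not move one way. Of 11 members, 4 were higher and 7 lower in CKO (median log2 fold change −0.05). Hspa5 was at 458, 485, 573 and 415 CPM in control and at 389, 460, 468 and 549 CPM in CKO. Dnajc3 (p58IPK), its co-chaperone in the lumen, was at 183, 126, 153 and 128 CPM in control and at 117, 134, 143 and 183 CPM in CKO. Control 3 and CKO 4 were the 2 highest libraries of Hspa5, and CKO 1 the lowest of both genes. Dnajc10 (ERdj5), a J-domain protein that reduces disulphides, was at 105 ± 22.6 and 99.7 ± 13.9 CPM. The scarce Dnajc25 was at 7.92 ± 1.81 and 9.19 ± 1.87 CPM (log2 fold change 0.21, SE 0.23). Hspa13 was at 64.0 ± 23.7 and 51.0 ± 11.9 CPM (log2 fold change −0.33, SE 0.25), with 98.6 CPM in control 1, whose omission brought the fold change to −0.04 (log2). The membrane proteins Dnajb12 (0.22, SE 0.16) and Dnajb14 (−0.26, SE 0.18) had log2 fold changes of opposite sign, which were 0.10 and −0.10 without control 1.

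The genes linked to synapses and neurons (Dnajc5, Dnajc6 and Hspa12a) were lower on average in CKO for 3 of 3, and their median log2 fold change was −0.25. None passed the test. Dnajc6 (auxilin), which recruits HSP70 to uncoat clathrin vesicles, was at 62.8, 59.7, 32.4 and 37.8 CPM in control and at 36.9, 36.0, 41.2 and 41.9 CPM in CKO (log2 fold change −0.30, SE 0.21). Dnajc5 (cysteine string protein), which guards SNARE proteins on synaptic vesicles, was at 191 ± 15.1 and 181 ± 9.71 CPM. Dnajc27, a small GTPase with a J domain, was at 82.3, 99.4, 53.8 and 51.4 CPM in control and at 58.0, 46.8, 64.6 and 53.6 CPM in CKO (log2 fold change −0.36, SE 0.22). For Dnajc6 and Dnajc27, control 1 and control 2 were high, while control 3 and control 4 did not exceed the highest CKO library. Without control 1 the log2 fold change of Dnajc6 was −0.15, and without control 2 that of Dnajc27 was −0.16. Those are also 2 of the 3 libraries highest for the neuron markers above, of which 13 of 15 had a lower mean in CKO, and their part in these values was not tested.

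The remaining DNAJC genes did not pass the test either. Dnajc8, a protein of spliceosomes, was at 97.2 ± 17.4 and 100.4 ± 5.09 CPM, and Dnajc7, which passes proteins between HSP70 and HSP90, at 91.8 ± 25.7 and 86.7 ± 6.63 CPM. Dnajc7 overlaps Cnp, a myelin gene at 858 CPM on the opposite strand, so part of its counts could not be told apart from Cnp. Dnajc16 was at 27.8 ± 7.64 and 21.9 ± 2.32 CPM (log2 fold change −0.34, SE 0.20). Dnajc24, which takes part in diphthamide synthesis, was at 20.8 ± 5.25 and 17.1 ± 1.33 CPM (−0.28, SE 0.19). Both were highest in control 1, at 39.0 and 28.2 CPM, and without it their log2 fold changes were −0.14 and −0.10. In all, 20 of the 82 genes overlap another gene of at least 1 CPM, and 10 of them a gene at a higher level than their own.

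Of the BAG proteins, Bag4, which keeps death receptors silent, stood out from its family. It was at 33.9, 21.6, 15.5 and 17.2 CPM in control and at 17.2, 17.1, 13.3 and 16.2 CPM in CKO. Control 1 was far above the rest, and the log2 fold change of −0.47 (SE 0.24; edgeR, unadjusted p = 0.0789) went to −0.18 without it. Bag1 was at 149, 254, 233 and 213 CPM in control and at 277, 226, 232 and 227 CPM in CKO, so control 1 was its lowest library. Bag3, the stress-induced BAG protein that leads clients to autophagy, was at 39.4 ± 9.44 and 41.9 ± 5.44 CPM. Bag6, which guards tail-anchored proteins, was at 106 ± 24.8 and 116 ± 5.98 CPM, and Bag5 at 33.5 ± 5.39 and 34.0 ± 2.05 CPM. Bag2, which inhibits the ubiquitin ligase CHIP, was at 9.43 ± 1.75 and 10.1 ± 0.692 CPM.

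No heat shock factor passed the test. Hsf1 was at 19.0 ± 4.10 and 20.5 ± 3.08 CPM, Hsf2 at 17.0 ± 3.49 and 16.5 ± 2.17 CPM, and Hsf4 at 7.55 ± 2.18 and 5.99 ± 1.15 CPM (log2 fold change −0.33, SE 0.26, but −0.15 without control 2 and −0.21 without CKO 4). Of the 10 members listed here as heat-shock-inducible (Hspa1a, Hspa1b, Hspa8, Hsp90aa1, Hsph1, Dnajb1, Dnaja1, Hspd1, Hspe1 and Bag3), 4 were higher and 6 lower in CKO (median log2 fold change −0.01). The list includes Hspa8, called constitutive above, which was among those higher (log2 fold change 0.11). For 6 of the 10 the highest value was in control 2, and over the 76 genes control 2 was highest for 26 (34.2%), against 15.2% of all genes tested. Control 2 also had the highest neuron marker sum, whose part in its chaperone levels was not tested. Mitochondrial genes took 6.37% of the counts of control 2 and 6.97% of those of control 1, and their part was not tested either. Control 1 was the lowest library for 28 of the 76.

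As a class the chaperones varied little. The median SD of log2 CPM over the 8 libraries was 0.23 for the 76, against 0.283 for all genes tested. Among genes of at least 10 CPM it was 0.221 for 64 chaperones, against 0.253 for 10604 genes. Of those 64, 12 spanned more than 2-fold between libraries, and without control 1 only Dnajc27, Hspa4l and Hsp90aa1 did. Control 1 was lowest for 36.8% of the 76, against 29.4% of all genes. It was highest for 16 of the 76 (21.1%, against 27.5% of all genes). The 6 untested genes were Cct6b, Cct8l1, Dnajb7, Dnajb8, Dnajc22 and Dnajc5g, and Dnajb7 had 15 counts in control 1 and 0 to 2 in each of the others.

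Genes that work with these chaperones but lie outside the families were read from 5 lists with 62 genes, all tested. In CKO the mean was higher for 42 (67.7%, against 48.1% of all genes tested) and lower for 20, and the median log2 fold change was 0.09. This lean rested on control 1, the lowest library of each list on average. Without it 28 were higher and 34 lower, with a median of −0.02, and 49.5% of all genes were higher. Fkbp5, an HSP90 co-chaperone that glucocorticoids induce, was the 1 gene of 62 (1.61%) with an unadjusted p under 0.05, a share near the 1.42% of all genes. It was at 68.5, 57.7, 110 and 81.3 CPM in control and at 108, 101, 179 and 148 CPM in CKO (log2 fold change 0.75, SE 0.24; edgeR, unadjusted p = 0.00943, adjusted p = 1.00), with control 3 above CKO 1 and CKO 2. The 20 HSP90 co-chaperones divided evenly, 10 and 10 (7 and 13 without control 1), with Chordc1 and Fnip1 lower in mean. Of 12 endoplasmic reticulum folding genes 10 were higher (8 without control 1), among them Calr (calreticulin), at 460 ± 92.3 and 561 ± 8.80 CPM, and Sdf2l1, while Herpud1 was lower. Of 11 further HSP70 cofactors 9 were higher (5 without control 1), Hscb and Sgta among them, and St13 was lower. St13 was at 249 CPM in control 1, 159 to 193 CPM in the other controls and 167 to 191 CPM in CKO. Of 12 CCT partners and prefoldin subunits 7 were higher (4 without control 1), with Pfdn1 higher and Pfdn4 and Pdcl lower. Of 8 mitochondrial proteostasis genes 6 were higher (4 without control 1), with Trap1 and Afg3l2 higher and Yme1l1 lower. None of these reached the adjusted threshold. Among the genes named, control 1 was the highest control library for Chordc1, Fnip1, St13, Pdcl and Yme1l1. It was the lowest for Calr, Sdf2l1, Sgta, Pfdn1, Trap1 and Afg3l2.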

How the data were processed

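RNA was isolated with TRIzol and libraries made with the NEBNext Ultra kit, per the labels' protocols. The authors deposited raw read counts per gene and FPKM values for the same 8 libraries. HISAT2 2.0.5, featureCounts 1.5.0-p3, DESeq2 1.20.0, fastp and CASAVA 1.8 appear with no stated role in the submitters' processing notes, beside a human genome build, although the tables hold mouse identifiers. Of 54409 identifiers shared with GENCODE M21 (GRCm38), 53462 have the same position there, as do 79 of the 82 chaperones, so coordinates are as deposited, on GRCm38. For annotation release, strand use and multi-mapping reads, the setting is not given in the sources used here. Recomputing FPKM from count, gene length and 1 constant for each library matched the deposited values to a relative deviation of 5.11e-15.

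Counts were tested with edgeR 4.0.16 (limma 3.58.1, R 4.3.3): filterByExpr with a minimum count of 10 and total of 15, TMM factors, the robust quasi-likelihood F test on genotype alone, and Benjamini-Hochberg adjustment over all 16537 genes with a threshold of 0.05. The standard error was the log2 fold change over the square root of F. The biological coefficient of variation was 0.27, and the median 95% interval of a chaperone reached 0.397 on the log2 scale either side. Family sums and Tia1 were compared by exact permutation.

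Members and lists were chosen with earlier results of these data known. Genes were named by rule: Tia1; all HSP90, HSP110, chaperonin, CCT, BAG and HSF genes; the 5 of highest FPKM in HSP70, DNAJA, DNAJB and DNAJC; inducible, endoplasmic reticulum, mitochondrial and synaptic members; the 5 of smallest p in each direction; the 5 most variable; genes at 0; and the 3 of smallest p in each list outside the families. Hspa4l, Hspa1l, Dnajb13, the untested genes above 0 and the overlapping partners were chosen after their values were seen. The labels give no batch or date. Alternatives were DESeq2 size factors, other filters, each library left out, control 2 and CKO 4 left out together (the libraries whose Tia1 lay nearer the other group), the replicate number as a term, DESeq2 1.42.0, limma-voom, library weights and limma-trend on log2(FPKM + 1) or log2(FPKM + 0.1). Protein sequences were not analysed here.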

Additional observations from a re-analysis of the deposited data

Results flagged for a closer look

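In 11 of 126 groups of 4 libraries, 1 library lay apart from the other 3 by more than Dixon's 95% critical value of 0.829 of the group's range, and chance alone gives about 1 in 20. In control, Dnaja1 was at 314 CPM in control 2 against 196 to 201 CPM in the other 3. Bag2 was at 12.03 CPM in control 1 against 8.28 to 8.86 CPM. Dnajc17, a J-domain protein linked to splicing, was at 1.74 CPM in control 1 against 6.71 to 7.32 CPM, and it overlaps Zfyve19, which is more abundant. Hspa2, an HSP70 known from male germ cells, was at 24.97 CPM in control 4 against 16.89 to 18.03 CPM.

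In CKO, Hsp90aa1 was at 1064 CPM in CKO 2 against 572 to 648 CPM, and Tcp1 was at 175 CPM in the same library against 203 to 208 CPM. Hsph1 was at 138 CPM in CKO 3 against 117 CPM in each of the others, and Dnajc30 at 17.96 CPM in CKO 3 against 12.5 to 13.3 CPM. Bag1 was at 277 CPM in CKO 1 against 226 to 232 CPM. Hspa12a was at 62.9 CPM in CKO 4 against 45.9 to 46.3 CPM, and Dnajc7 at 76.8 CPM in CKO 4 against 89.5 to 90.8 CPM.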

How the results depend on the processing

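No alternative run called a chaperone at an adjusted p under 0.05. The smallest adjusted p of a chaperone was 0.757, without control 3. Over all genes, 1 was called with DESeq2's Wald test in place of 0, which also tested more genes (28868). At an unadjusted p under 0.05, 1 chaperone was called with limma-voom and library weights (Dnajc1). Leaving out single libraries gave 0 to 4: Dnajc1 without control 1, Hsp90aa1, Dnajb14, Dnajc6 and Bag4 without control 3, and Dnajc27 without control 4. The median log2 fold change ran from −0.04 to 0.03 as single libraries were left out. The CKO to control ratio of summed FPKM ran from 0.982 to 1.10 for HSP70, 0.897 to 1.04 for HSP90 and 1.01 to 1.09 for CCT. Dnaja1 changed sign without control 2 and CKO 4, to 0.0031 on the log2 scale, and the cause was not tested. This was the 1 sign change in 323 values over 17 fold changes of named genes above their standard error, Tia1 included. For 44 named chaperones with smaller differences, the sign changed in 113 of 835 values, with 0 called.

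With the replicate number as a block, 0 genes were called and the median log2 fold change of the chaperones was 0.01. Same-numbered samples had correlations of −0.06, 0.05, −0.09 and −0.33. So few samples cannot show whether a shared number marks a pairing, and the labels state none. Depth limited scarce members, and the widest interval was that of Dnajc5b.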
